A study of Mus musculus with 27 samples.

Results

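Of the 566 genes in the authors' deposited table of trans regressions, 123 carry a provisional name, either Gm followed only by digits (93 genes) or a name ending in Rik (30 genes). They were chosen by these names among rows that the table had already selected on a p-value under 0.01 in the regression of expression on genotype, and the other 443 rows of the table served for comparison. The regression used RNA-seq of mouse testis from 9 samples, 3 wild type, 3 heterozygous and 3 homozygous for the deletion that the labels call B396.BOS, which CRISPR-Cas9 made at a boundary between topologically associating domains. All libraries were total RNA depleted of ribosomal RNA and prepared with a kit that keeps the strand. Strain, age and the number of founder lines were not given in the sources used here. Capture Hi-C of 3 wild-type and 3 homozygous testis samples gave the independent readout used here for the same loci. Expression values of single libraries were not used here, so each gene enters with its slope, its t statistic and its p-value over the 9 samples.

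Gm names are given to gene models predicted from the genome sequence, and Rik names to full-length mouse cDNA clones from the RIKEN collection, until a gene receives a name for its function. Many of them are long non-coding RNAs (lncRNAs), transcripts that are not translated into a known protein. Testis transcribes an unusually broad set of such genes, above all in meiotic and post-meiotic germ cells. Their names say how they were found and nothing of what they do. In bulk testis, fewer cells of a type and less RNA per cell cannot be told apart, which holds for every slope below.

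The provisional names belonged mostly to non-coding genes. In the RefSeq gene table for GRCm38.p6, 115 of the 123 were found, 112 by symbol and 3 by an older symbol. Of these 115, 99 (86.1%) were lncRNAs, 15 were protein-coding and 1 was a transcribed pseudogene. Among the other rows, 438 of 443 were found, and 19 of them (4.34%) were lncRNAs against 415 protein-coding genes. In the gene table as a whole, 24092 of 49997 genes (48.2%) carry such a name, of which 49.5% are lncRNAs and 7.26% protein-coding. The names thus made up 21.7% of the listed rows and 48.2% of the gene table. How many of the genes tested by the authors carried such names was not analysed here. The 3 genes matched by an older symbol have since been renamed: the protein-coding 1700061G19Rik is Acsbg3, the protein-coding 6430531B16Rik is Spef1l and the lncRNA 5033428I22Rik is Hdnr. Conversely, 17 of the 20 rows listed under a LOC number carry a Gm symbol in the gene table.

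Promoters of 4 genes that mark the ends of the pattern are shown first: the smallest p-value (Gm38460), the largest slope of a lncRNA (Gm13001), the negative slope with the smallest p-value (Gm1123) and the largest slope of all 123 (1700061G19Rik). Each window runs from 250 bases before to 50 bases after the annotated start, is written 5′ to 3′ on the gene's strand, and comes from RefSeq on GRCm38.p6. Capitals mark matches to the 6 motifs searched, and Gm38460 has none.
Gm38460, chr17:88653654-88653953, plus strand: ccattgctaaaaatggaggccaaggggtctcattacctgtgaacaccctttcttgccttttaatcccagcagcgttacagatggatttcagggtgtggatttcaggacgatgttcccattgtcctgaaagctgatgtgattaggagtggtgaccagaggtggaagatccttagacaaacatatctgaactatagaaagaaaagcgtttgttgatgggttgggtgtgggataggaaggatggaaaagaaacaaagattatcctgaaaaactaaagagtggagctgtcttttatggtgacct
Gm13001, chr4:137118109-137118408, minus strand: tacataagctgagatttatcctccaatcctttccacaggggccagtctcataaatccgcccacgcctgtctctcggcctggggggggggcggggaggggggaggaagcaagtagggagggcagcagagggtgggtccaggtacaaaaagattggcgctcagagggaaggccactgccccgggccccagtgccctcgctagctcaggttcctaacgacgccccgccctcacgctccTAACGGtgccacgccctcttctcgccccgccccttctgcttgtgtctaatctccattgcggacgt
Gm1123, chr9:99035641-99035940, minus strand: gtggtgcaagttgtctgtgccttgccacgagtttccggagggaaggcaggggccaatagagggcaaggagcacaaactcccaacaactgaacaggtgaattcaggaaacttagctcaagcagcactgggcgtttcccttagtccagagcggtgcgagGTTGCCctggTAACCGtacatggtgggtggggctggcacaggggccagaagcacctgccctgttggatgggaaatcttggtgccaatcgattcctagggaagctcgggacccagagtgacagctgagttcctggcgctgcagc
1700061G19Rik, chr17:56875234-56875533, plus strand: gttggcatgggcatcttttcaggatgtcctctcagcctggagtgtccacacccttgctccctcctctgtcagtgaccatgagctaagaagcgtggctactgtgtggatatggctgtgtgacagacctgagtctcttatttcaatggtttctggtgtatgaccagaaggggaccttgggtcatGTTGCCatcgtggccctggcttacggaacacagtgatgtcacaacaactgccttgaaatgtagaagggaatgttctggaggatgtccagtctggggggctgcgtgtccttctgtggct
In Gm13001 the capitals are a MYB match, in Gm1123 an RFX match followed by a MYB match, and in 1700061G19Rik an RFX match.

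The slope of a gene is the change in its expression per step of the genotype variable, as fitted by the authors. Neither the unit of expression nor the coding of genotype is stated, so a positive slope cannot be tied to more or fewer deleted alleles from the table alone. Whether slopes of different genes share a common scale is therefore not known, whereas the t statistic (the slope divided by its standard error) has no unit. Values of t, p and slope also chose the rows, so they are given as a description without a test. The whole table corresponds to 566 of 35970 regressions, or 1.57%, and nothing is read from that share. No member had a false discovery rate (FDR) under 0.05 in Matrix eQTL, the authors' program, while all 123 had an unadjusted p under 0.01, and 1 had an FDR under 0.1.

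That gene was Gm38460, a lncRNA on chromosome 17 (88653904 to 88662265, plus strand). Its slope in the authors' deposited table was 1.08, with a standard error of 0.0787 (slope divided by t; t = 13.7, p = 2.55e-06, FDR 0.0917). Genotype accounted for 96.4% of the variance of its 9 values. It lies 3228 bases from Gtf2a1l on the same strand, which encodes a germ-cell form of a subunit of the general transcription factor TFIIA and is not itself listed. The second member was Gm13001, a lncRNA of 1450 bases on chromosome 4, whose slope of 7.21 (SE 0.800, t = 9.01, FDR 0.564) was the largest of any lncRNA here. The FDR therefore went from 0.0917 to 0.564 between the first member and the second. For scale, the first of the other rows were Mypop (t = 8.47), Ppan (t = 7.99) and Spata5l1 (t = 7.90).

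The 10 members with the smallest p-values comprised 7 lncRNAs and 3 protein-coding genes, 9 of them with a positive slope. Their slopes spanned a range of 84.8-fold in size, from 0.0851 for Gm30505 to 7.21 for Gm13001. Gm36031, a lncRNA on chromosome 2, had a slope of 0.224 (SE 0.0291, t = 7.69). Gm10644, a lncRNA on chromosome 8 that overlaps Adgrl1 on the opposite strand, had a slope of 1.58 (SE 0.214, t = 7.35). Gm10644 also lies 17.6 kb from Prkaca, the catalytic subunit of protein kinase A with a sperm-specific form, which is listed with a slope of 9.30 (t = 4.17). Gm30505 overlaps Dnajb11 and Ahsg on the opposite strand and had a t of 6.39. C030016D13Rik starts 129 bases from Pum3 on the opposite strand, with a slope of 0.120 (t = 5.90), and Gm32449 had a slope of 0.128 (t = 5.72). Every t in this group is high by its choice, and the highest belonged to Gm38460 and Gm13001, not to the genes with the smallest slopes.

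The largest positive slopes belonged to a different set of genes. Only 1 of the 8 members with the largest slopes, Gm13001, was also among the 10 with the smallest p-values, and the others had p-values up to 0.00955. 1700061G19Rik (Acsbg3), a protein-coding gene on chromosome 17, led with 11.4 (SE 3.18, t = 3.59). It lies 947 bases from Acsbg2, which encodes an acyl-CoA synthetase of the bubblegum family and is not listed. Next came the lncRNAs Gm13001, 1700028I16Rik with 7.20 (SE 1.76, t = 4.10), 4930483J18Rik with 6.42 (SE 1.82, t = 3.53) and Gm29843 with 6.29 (SE 1.35, t = 4.65). Gm15908 had 6.07 (t = 3.66), 6430531B16Rik (Spef1l) 5.52 (t = 3.70) and Gm40513 5.15 (t = 3.93). Several of these genes start close to a coding gene: 4930483J18Rik lies 117 bases from Mrtfa, a coactivator of serum response factor, and Gm15908 242 bases from Pxdc1, both on the opposite strand. Even so, 38 of the other rows had a slope above that of 1700061G19Rik.

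Slopes of the members were smaller than those of the other rows. Their median size was 0.413 (quartiles 0.153 and 1.33), against 2.10 (quartiles 0.668 and 5.38) for the other rows. A slope over 1 in size was listed for 36 members (29.3%) and 293 other rows (66.1%), and one over 5 for 9 members (7.32%) and 120 other rows (27.1%). Most of the other rows were protein-coding, and by annotation the gap was mainly to these: the 415 protein-coding other rows had a median of 2.29 and the 19 lncRNAs among the other rows 0.511. The 99 lncRNA members, at 0.413, were thus close to the lncRNAs listed under other symbols. Those 19 have the same lowest and highest slope size (0.0238 and 7.05) as the 20 rows under a LOC number. Of the LOC rows, 17 carry a Gm symbol in the gene table, so the 19 may largely be the same kind of gene. Members were not compared with lncRNAs of other kinds of names alone. The 15 protein-coding members, also at 0.413, were well below the other protein-coding rows. Standard errors differed likewise, with medians of 0.105 in the members and 0.494 in the other rows. The unit-free measures were much closer: the median size of t was 3.83 in the members and 4.01 in the other rows, and the median share of variance 67.6% and 69.6%. Since every row passed the same limit, the lowest t was near 3.5 in each group (3.511 and 3.501). Within the members, Rik genes had a median slope size of 0.781 and Gm genes of 0.399, without a test of that difference.

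**Figure D1:**
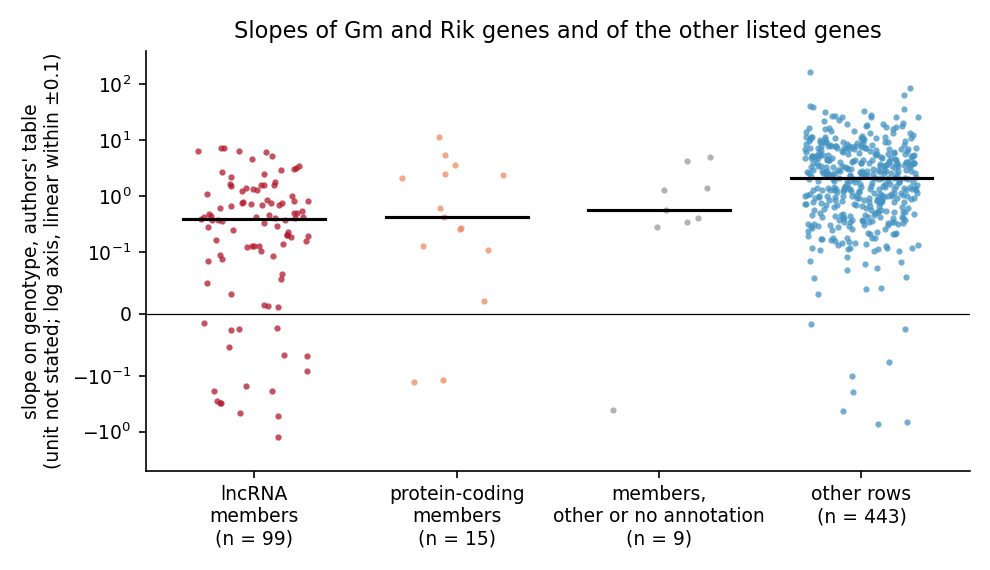
Slopes on genotype from the authors' deposited table for 99 lncRNA members, 15 protein-coding members, 9 members with another or no annotation and 443 other rows; each point is a gene, bars are medians, and the vertical axis is logarithmic outside ±0.1. Negative slopes are frequent among lncRNA members (17 of 99), and members seldom exceed 5, while the other rows reach 167.

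Negative slopes were concentrated in the members. Slopes were negative for 20 of the 123 members and for 8 of the 443 other rows, so that the members held 21.7% of the table but 71.4% of its 28 negative slopes. Positive slopes made up 83.7% of the members and 98.2% of the other rows. Of the 20 negative members, 19 had a Gm name and 1, A330049N07Rik, a Rik name. By annotation, 17 were lncRNAs, 2 protein-coding and 1 unmatched. The share of positive slopes was 82.8% in lncRNA members and 89.5% in the 19 lncRNAs among the other rows, while 13 of 15 protein-coding members and 411 of 415 protein-coding other rows were positive. As for slope sizes, those 19 lncRNAs may largely be genes that carry a Gm symbol in the gene table. Rows were also split by size of slope into 3 groups of about equal number. Among the smallest slopes (under 0.683 in size), 19 of 77 members (24.7%) and 6 of 112 other rows (5.36%) were negative. In the middle group, negative slopes numbered 1 of 32 members and 2 of 156 other rows, and among the largest slopes (over 3.10) there were none among 14 members and 175 other rows.

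Most negative of all was Gm30127, a lncRNA on chromosome 13 (35959003 to 35964184) that overlaps Ppp1r3g, a glycogen-targeting subunit of protein phosphatase 1, on the opposite strand. Its slope was -1.27 (SE 0.308, t = -4.13). Gm26608, 15380 bases from Insig1, a regulator of sterol synthesis, followed at -0.53 (SE 0.150, t = -3.56), then Gm39327 at -0.47 (t = -4.13) and Gm21645, which was not matched, at -0.41 (t = -4.36). Gm35079 had -0.31 (t = -3.70), Gm32041 -0.31 (t = -3.71), Gm30763 -0.28 (t = -3.68) and Gm39613 -0.19 (t = -3.78). Only Gm30127 and Gm26608 were below -0.5, whereas 51 members were above 0.5. The negative slope with the smallest p-value was that of the protein-coding gene Gm1123 on chromosome 9, at -0.13 (SE 0.0176, t = -7.36).

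Protein-coding members were few and mostly positive, 13 of 15. Beside Gm1123, those with the smallest p-values were Gm1096 (slope 3.64, t = 5.94), Gm5709 (0.264, t = 5.91), the X-linked 2010106E10Rik (0.109, t = 5.32) and 4933428G20Rik (2.47, t = 4.68). Gm32916 (2.11, t = 4.65), Gm1043 (0.257, t = 4.52) and Gm38523 (0.126, t = 4.28) came next. The other negative gene was the X-linked Gm15080, at -0.12 (t = -3.80). At the edge of the table, the last members inside the limit were Gm31336 (t = 3.514), Gm36493 (t = 3.512) and Gm31725 (t = 3.511), all with positive slopes. Rows just outside the limit are not in the table.

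Members with a position lay on 20 chromosomes, and none was on Y. Chromosome 12 held the most, 12 genes or 10.4% of the 115, where 4.78% of all genes with such names lie. Chromosome 5 held 11 (9.57% against 5.71%). Chromosomes 8, 9 and 17 held 9 each (7.83%), against 4.94%, 4.60% and 3.78% of such names. Chromosome 7, which held 54 of the other rows, held 4 members (3.48% against 7.08%). Chromosomes 1 and X held 3 each (2.61%), against 6.44% and 5.88% of such names. The 12 members on chromosome 12 were spread from 11438233 (4930511A02Rik) to 116757250 (Gm31336), and no 2 of them lay within 100 kb. On chromosome 4, which carries the deletion, there were 4 members. Gm13001, Gm42322 (slope 1.76, t = 3.91) and 1700080G11Rik (0.652, t = 3.76) lay 29.2, 25.6 and 19.6 Mb from the span of the cis genes, and Gm30763 62.5 Mb away on the other side.

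**Figure D2:**
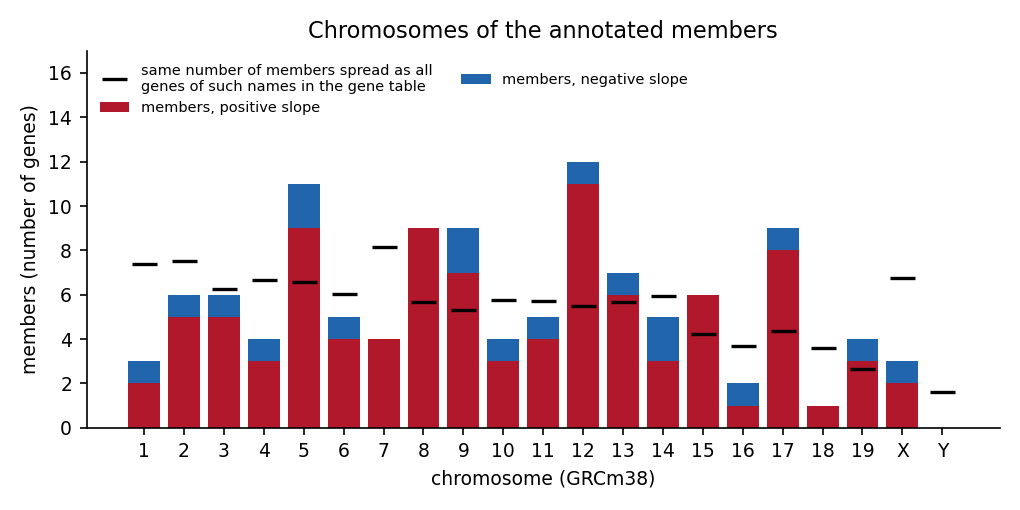
Number of members on each chromosome, with positive slopes in red and negative slopes in blue; black dashes give the number if members were spread over chromosomes like all genes of such names in the gene table. Chromosomes 12 and 5 stand highest with 12 and 11 members, and chromosomes with a negative slope carry 1 or 2 of them.

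Genes with provisional names also lie beside the deletion. The authors' deposited cis table lists 2 such genes of 6, both lncRNAs on chromosome 4. 4933424M12Rik had a slope of 0.109 (SE 0.150, t = 0.724, FDR 0.991). Gm12907 had a p-value of 1, with a slope of 9.50e-19. The 3 bins of 10 kb with lost contacts in homozygotes, 107710001 to 107740000, overlap 1 gene of the gene table, the lncRNA 1700047F07Rik (107689600 to 107744284), and that gene is listed in neither table.

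Positions of the lncRNA members relative to coding genes were counted. The same counts were not made for other lncRNAs, so the shares are not read as particular to the members. Of the 99, 32 overlapped a protein-coding gene, 20 lay within 5 kb of one without overlap, and 47 lay farther away, at a median of 35830 bases and up to 778 kb for Gm39613. Of the overlaps, 19 were on the opposite strand, 1 was on the same strand, and the strand of 12 was not known from the promoter table. Median slope sizes in the 3 groups were 0.407, 0.481 and 0.370. Negative slopes numbered 6 of 32, 2 of 20 and 9 of 47. The kit keeps the strand, but whether the authors' counting used it is not given in the sources used here, so reads of overlapping genes on opposite strands may have been shared. Among the nearest or overlapping coding genes, 2 were themselves in the trans table.

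Within the table, 14 pairs of rows that include a member lay at most 100 kb apart, and in all 14 both slopes were positive. The pairs share the same 9 libraries, and 83.7% of members, 98.2% of the other rows and 95.1% of all rows are positive. In 5 pairs the genes overlapped or lay within 5 kb. Gm42020 (slope 3.50, t = 4.46) overlaps Trafd1, a negative regulator of innate immune signalling, on the opposite strand (slope 26.3, t = 3.98). Gm41526 (0.0146, t = 4.42) overlaps Park2, the ubiquitin ligase parkin (0.639, t = 4.82). 6430531B16Rik overlaps LOC102635948 on the opposite strand (0.511, t = 3.55). Gm34030 (0.0112, t = 3.55) overlaps 5033428I22Rik (0.997, t = 3.95). 1700061G19Rik lies 2.75 kb from Mllt1, a component of transcription elongation complexes, with 10.4 (t = 4.13), and 44.4 kb from Rfx2, a transcription factor needed for spermatid maturation, with 33.9 (t = 3.88). The 3 genes occupy 1 stretch of chromosome 17, where the member has the smallest t of the 3.

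Promoters of the members were compared with those of the other rows and of all genes. The table holds 116 promoters for 94 members. A median of 4 CG pairs per 300 bases was found in members, 19 in the other rows, 7 in all 32851 promoters and 4 in all 11588 lncRNA promoters. Over 10 CG pairs were present in 24.1% of the members' promoters, 72.4% of those of the other rows, 41.4% of all promoters and 16.9% of all lncRNA promoters. Of the 8 genes with the largest slopes, 5 had only promoters with over 10 CG pairs: 4930483J18Rik (33 pairs), Gm15908 (30), 1700028I16Rik (28), Gm13001 (17) and 6430531B16Rik (13). Gm40513 has 2 promoters in the table, with 17 and 3 pairs, and Gm29843 and 1700061G19Rik had 4 each.

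**Figure D3:**
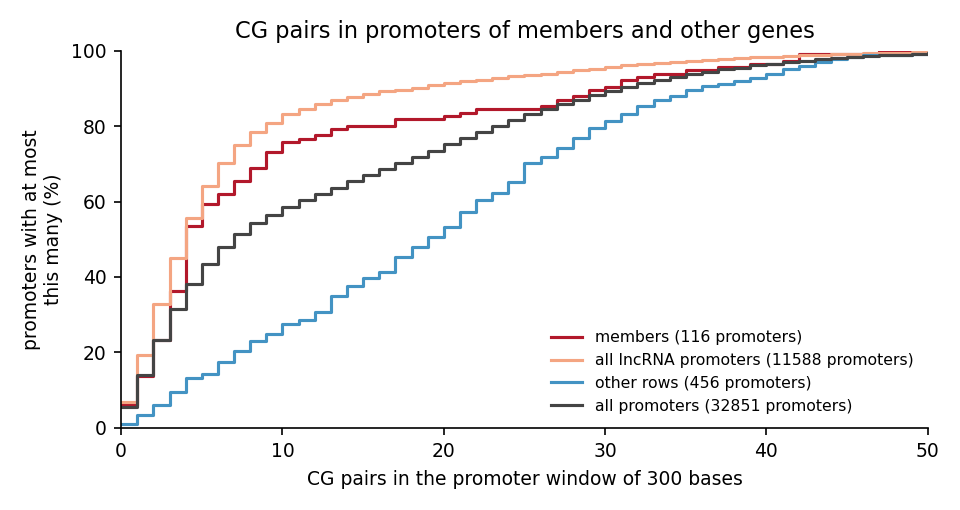
Cumulative share of promoters with at most the given number of CG pairs in 300 bases, for 116 promoters of members, 456 of the other rows, 11588 of lncRNAs and 32851 of all genes. At 4 pairs the members' curve reaches 53.4% and that of all lncRNA promoters 55.8%, while the curve of the other rows lies far to the right.

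Motifs were searched on both strands in the same windows. TAACNG, a MYB motif, was found in 31.9% of the members' promoters, 20.0% of those of the other rows, 23.3% of all promoters and 27.5% of lncRNA promoters. GTTGCC, a core motif of RFX factors, was in 18.1%, 11.4%, 12.5% and 12.3% of the same sets. ACANTGT, a motif of DMRT factors such as Dmrtb1 beside the deletion, was in 7.76%, 3.73%, 7.54% and 9.89%. AGGGGGC, part of the CTCF consensus, was in 4.31%, 14.0%, 10.6% and 6.39%, and TATAAA in 15.5%, 7.46%, 13.6% and 15.5%. TGACGTCA, the cAMP response element bound by CREM in spermatids, was in 1 promoter of a member (Gm31714, 0.862%), and in 2.85% of those of the other rows, 1.79% of all promoters and 0.975% of lncRNA promoters. The members' set includes coding genes, whereas the lncRNA set does not. In the 97 promoters of lncRNA members alone, TAACNG was in 29.9%, GTTGCC in 15.5% and ACANTGT in 9.28%. AGGGGGC was in 4.12% of them, TATAAA in 15.5% and TGACGTCA in 0%. A match is only a match of letters. Base composition differed between the sets, with a median of 50.3% G and C in the members' promoters and 59.3% in those of the other rows, and its part in the motif shares was not tested.

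Capture Hi-C allowed a measurement that the choice of genes had not used: how often the captured core around the deletion touched the members' loci on other chromosomes. The core spans 107110001 to 107960000 on chromosome 4 (85 bins of 10 kb), and its 3 bins lost in homozygotes were left out in both genotypes. A locus was the gene with 100 kb on each side, and chromosomes 2 and 4, which both hold captured regions, were left out. The 105 remaining members covered 23.6 Mb. Per 1000000 contacts of the core with the chromosomes used, the wild-type libraries had 14156, 14891 and 13954 contacts at these loci, and the homozygous libraries 14320, 15223 and 14574. The genotypes overlapped, and replicate 2 was the highest in each. Wild-type libraries averaged 14334 ± 493 (SD, n = 3) normalised contacts. Homozygous libraries averaged 14706 ± 466 (SD, n = 3). Each library held 2924 to 5160 such contacts before normalisation. The log2 difference of 0.04 was smaller than the larger SD of 0.05 (two-sided exact permutation p = 0.4, where 3 against 3 libraries cannot go below 0.1). At the 377 loci of the other rows the difference was 0.02 (exact permutation p = 0.7). A change of the members' sum beyond the spread between libraries was not detectable.

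**Figure D4:**
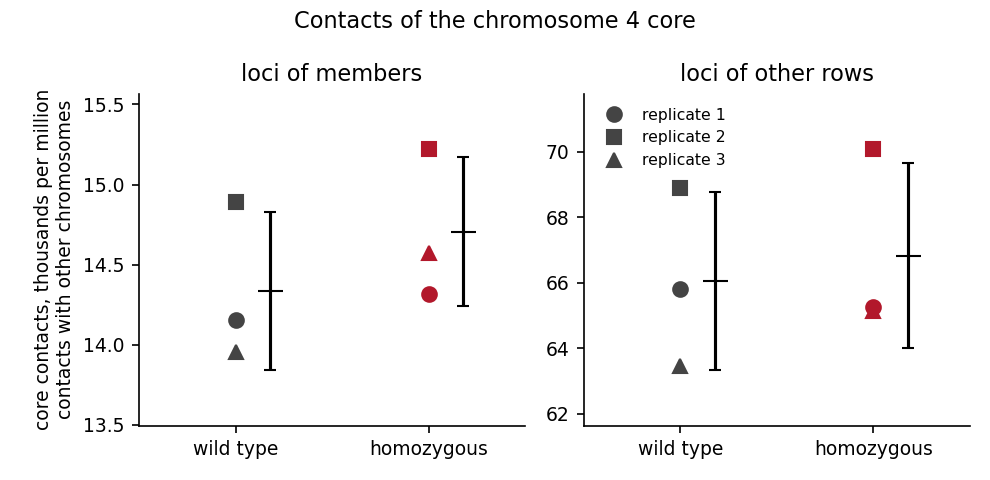
Contacts of the chromosome 4 core with the loci of 105 members (left) and of 377 other rows (right), in units of 1000 normalised contacts (per 1000000 contacts of the core with other chromosomes except 2); symbols are the 3 libraries of each genotype and bars the mean ± SD. Axes do not start at 0, and wild-type and homozygous libraries overlap in both panels.

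Counts of separated single loci were near those over all genes. Every homozygous library lay above every wild-type library for 5 of the 105 members (4.76%), against 4.58% of all 43316 genes measured in the same way, and below for 5 (4.76%), against 4.36%. A member's locus had a median of 35.8 contacts per library, so that differences at single loci rest on few contacts. The most contacts were counted at 2810013P06Rik (71.0 per library on average), Gm36493 (67.7) and 4933428G20Rik (63.0), and none of the 3 separated the genotypes. Of the members described above, 1700061G19Rik and C030016D13Rik were among those below, and 6430531B16Rik among those above. At 1700061G19Rik, wild-type libraries had 179, 223 and 179 normalised contacts and homozygous ones 175, 168 and 155. At C030016D13Rik the values were 126, 125 and 122 against 92.1, 106 and 83.2. At 6430531B16Rik they were 174, 172 and 160 against 179, 180 and 204. Each of these genes has a positive slope, as do 103 of the 123 members. Fewest contacts were found at the X-linked Gm15080, with 1 contact in all 6 libraries together.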

How the data were processed

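RNA-seq of 9 testis samples entered through 2 tables from Matrix eQTL, named so by the deposited files. STAR and mm10 are given in the submitters' processing notes. The deposited t statistics and slopes are scores without a stated unit, beside deposited p-values and FDR values. A t distribution with 7 degrees of freedom (the number left by a straight line through 9 samples) returns the listed p-values to a relative difference of 6.43e-13, and the FDR implies 35970 tests. Standard errors were computed as slope over t, and the share of variance as t squared over t squared plus 7.

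Capture Hi-C files hold contact counts per pair of 10 kb bins, as deposited by the authors, all of them whole numbers. Libraries held 5669898 to 7794641 contacts, of which 206219 to 338968 were used here. The core, a rule chosen after the values were seen, is the longest run of bins with at least 20% of the highest mean total. Bins under 0.75 of the wild-type share were taken as lost. The contact measure was tried on simulated counts with a known change at evenly spaced loci. Apart from that change, the simulated libraries differed only in depth and counting noise. The spread between the real libraries was therefore not simulated. Labels do not say whether replicates are separate animals, so the p-values refer to differences between these samples and not to animals in general.

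Named members are the 10 smallest p-values, the 8 largest and 8 most negative slopes, the 8 first protein-coding genes, those on chromosome 4, those within 5 kb of another row and the 3 largest p-values, with 3 loci for contacts. Other genes were named after their values were seen. Markers of testis cell types (56 genes in 10 lists) could be looked up only among the listed rows, where 3 occur (Ybx2, Spag4 and Vwf, all positive), so the tissue label was not checked further. The members and lists were chosen with earlier results of these data known. ChIP-seq was not analysed here. Python 3.11.15, pandas 2.3.3, numpy 2.4.6 and scipy 1.17.1 were used.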

Additional observations from a re-analysis of the deposited data

How the results depend on the processing

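The members had the smaller median slope in all 9 alternatives for the choice of rows, and the lower share of positive slopes in 8. The exception was Rik names alone, with 30 genes, of which 96.7% were positive against 95.0% of the rest. Median slope sizes were 0.781 and 1.46. The rest here was 536 rows, which include the 93 Gm members. Among the 443 other rows, 98.2% were positive with a median slope size of 2.10, both above the values of the Rik genes. Limits of p under 0.005 and under 0.001 left 47 and 15 members. Under 0.001, 93.3% of members and 100% of the other rows (46) were positive, with a median slope size of 0.264 in the members. Held to genes annotated as non-coding, 83.0% of the 100 members and 87.0% of the 23 other rows were positive. The median slope sizes were then 0.416 and 0.685, much closer than over all rows. Counting the 17 LOC rows with a Gm symbol as members, an alternative added after the values were seen, gave 140 members, 84.3% of them positive. Contacts of the core with the members' loci differed by 0.0118 to 0.0648 on the log2 scale when each library was left out in turn, lowest without homozygous replicate 2 and highest without wild-type replicate 2, with exact permutation p from 0.2 to 0.8. The difference was 0.0396 for the whole captured region, 0.0673 for the bins of the gene alone, 0.0892 when normalised to all contacts of the library and 0.0372 for loci with at least 5 contacts. With the replicate block it was 0.0370 (exact sign-flip p = 0.25, the smallest 3 pairs allow). Each library's deviations from the mean of its genotype were correlated over the members' loci between same-numbered libraries, giving 0.254, 0.266 and 0.0214. Libraries of different numbers were not compared in this way, so whether the numbers mark pairs was not tested. The main comparison did not take the numbers as pairs. No alternative reversed the difference. Per-locus values are limited by a median of 35.8 contacts, and slopes by 9 samples.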

Other observations

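Gm32257 on chromosome 19 and Gm41545 on chromosome 17 share a t statistic of -3.61 to at least 8 decimals, with a difference of 1.02e-14. Their slopes are -0.0142 and -0.0246, a ratio of 1.74, and both are among the smallest in size of the 20 negative members. Values of single libraries were not used, so the reason for the equal t was not tested. No other pair of the 566 rows agrees to that many decimals. The genes lie on different chromosomes, with spans of 15290 and 12248 bases. Slopes under 0.1 in size were listed for 20 members and 15 other rows.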
